A study of Rattus norvegicus with 2 samples.

Results

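The TGF-beta ligands, the proteins that hold them latent and their receptors were followed as 10 genes (Tgfb1, Tgfb2, Tgfb3, Ltbp1, Ltbp4, Tgfbr1, Tgfbr2, Tgfbr3, Eng and Acvrl1), chosen by gene symbol from the 23373 rat genes in both libraries and, for mouse cells, from the 25906 mouse genes in the chimera. All 10 had a rat row and a mouse row. The data were single-cell RNA-seq of skeletal muscle collected from the whole body and sorted for live cells, with 1 library from an adult rat-mouse chimera and 1 from a Sprague-Dawley (SD) rat control. The chimera came from an SD rat morula injected with mouse induced pluripotent stem cells that carried the edited Dmd mdx allele and the Pax7-nGFP reporter, and the host kept its own satellite cells. It was 1 of the animals obtained, the ages were not given, and with 1 library per group no test between groups was possible.

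TGF-beta ligands are secreted with their own propeptide wrapped around them, and this latent complex binds LTBP proteins that tether it to fibrillin in the matrix until an integrin, a protease or thrombospondin releases it. The freed ligand binds TGFBR2, which recruits and phosphorylates TGFBR1 (ALK5), and SMAD2 and SMAD3 carry the signal to the nucleus. TGFBR3 (betaglycan) presents ligand, TGF-beta2 above all, while endoglin (Eng) and ACVRL1 (ALK1) form an endothelial branch that also receives BMP9 and BMP10 and signals through SMAD1, SMAD5 and SMAD9. In muscle the pathway is known for driving matrix production by fibro-adipogenic progenitors (FAPs) and for holding back myoblast fusion.

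In total 13299 barcodes and 118872850 UMIs came from the chimera, 10117 barcodes and 70957559 UMIs came from the control, and 43 barcode sequences occurred in both. After filtering, 8230 chimera cells were rat (at most 20% of UMIs on mouse genes) and 1847 were mouse (at least 80%), 1653 lay between and were not used, and 8816 SD rat cells remained. Levels are UMIs per 1000000 UMIs on genes of the cell's own species (CPM), summed over all cells of a class, with exact 95% Poisson intervals in brackets that cover counting error only and say nothing of the spread between animals. Clusters were made without the 10 genes and named from marker lists, so every class carries "-like". The 12 named classes with at least 50 cells in both rat populations were used, from FAP-like cells (3205 in the SD rat, 2599 chimera rat) and vascular endothelial-like cells (1525 and 719) down to mast-like cells (76 and 53). In mouse cells 9 of these classes held at least 20 cells, led by 1085 endothelial-like and 125 FAP-like cells. Clusters led by cycling genes were kept apart and not compared (117, 204 and 69 cells in the SD rat, chimera rat and chimera mouse populations), as were erythroid-like cells (32, 40 and 23). The cycling mouse cluster, which also carried endothelial markers, had Eng at 342 CPM and Tgfb1 at 135 CPM. Clusters led by MHC class II genes or by markers of both endothelium and pericytes stayed unnamed (160, 291 and 114 cells in the SD rat, chimera rat and chimera mouse populations).

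Chimera reads were mapped to the joined rat and mouse reference and could leave the rat gene for the mouse gene of the same name. In chimera rat cells 32.7% (31.2 to 34.3) of the UMIs of the Tgfb1 pair lay on the mouse gene. The share was 12.0% for Tgfbr3, 7.97% for Acvrl1 and 5.05% for Tgfb2, and between 1.25% and 4.95% for the other 6 genes, against a median of 4.40% over 11685 gene pairs. The Tgfb1 share was similar from class to class, between 29.4% and 38.1% in the 8 classes with at least 50 UMIs of the pair. Other shares were not fixed. Eng had 2.72% on the mouse gene in vascular endothelial-like rat cells but 44.1% (15 of 34 UMIs) in T or NK-like ones. In mouse cells the reverse share of Tgfb2 was 11.6% over all cells, with 1.17% (3 of 256 UMIs) in FAP-like and 36.8% (35 of 95) in endothelial-like cells, and that of Tgfb3 was 9.62%, with 2.86% and 36%. Reads mapped to the wrong species and RNA from cells of the other species cannot be told apart in these shares. Each ratio of the 10 genes that was past 2-fold is therefore also given with both genes of a pair summed. Summing also takes the UMIs of all genes of the other species into the total, 6.58% to 13.03% of the UMIs of the rat classes and 1.89% to 14.0% of the mouse classes. A ratio can therefore fall although UMIs were added to the gene.

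**Figure D1:**
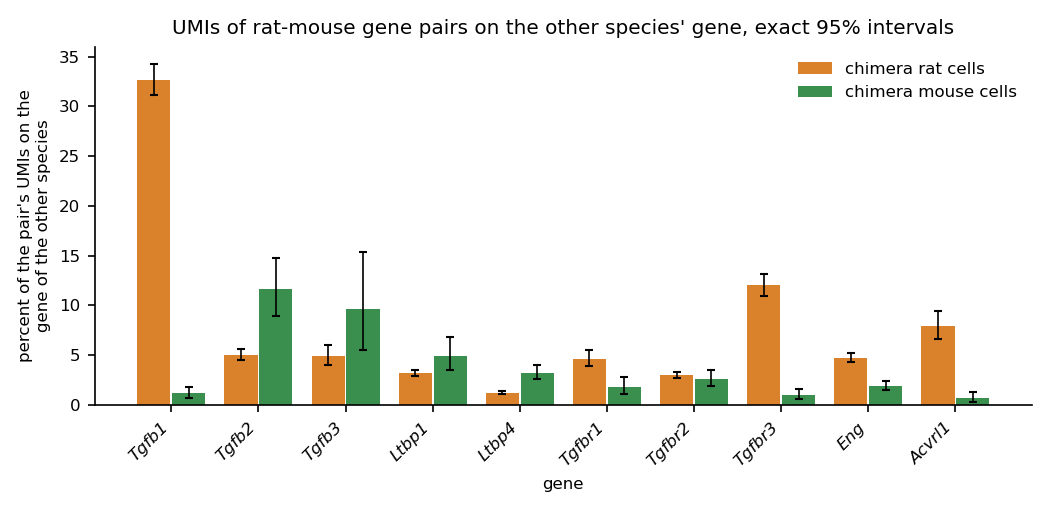
Percent of the UMIs of each rat-mouse gene pair that lay on the gene of the other species (vertical axis) for the 10 genes (horizontal axis); bars are chimera rat cells and chimera mouse cells, with exact 95% binomial intervals. Tgfb1 in rat cells stands apart at 32.7%, with Tgfbr3 next at 12.0%.

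The class with the highest RNA level differed between the ligands. Tgfb1 was highest in immune and endothelial classes, Tgfb2 in pericyte or mural-like cells of both rat populations and Tgfb3 in tenocyte or fibroblast-like cells, though these leads were not all beyond counting error. In the SD rat Tgfb1 reached 205 CPM (166 to 250) in mast-like cells, 189 (176 to 203) in myeloid-like cells and 163 in lymphatic endothelial-like cells, and the intervals of these neighbours overlapped. T or NK-like cells followed at 124 CPM and vascular endothelial-like cells at 112 CPM, while FAP-like cells stood at 22.1, myogenic progenitor-like cells at 6.81 and myocyte-like cells at 1.37 CPM. In chimera rat cells myeloid-like cells led with 103 CPM (96.0 to 110.4), ahead of lymphatic endothelial-like (73.7) and mast-like cells (68.3). In mouse cells myeloid-like cells again led, with 176 CPM (147 to 209), before endothelial-like cells with 117 and B-like cells with 110.7 CPM. Thus myogenic classes sat at or near the bottom of the Tgfb1 order in both rat populations. Mouse myocyte-like cells had 0 UMIs, which over their 29 cells allows up to 32.6 CPM. Clusters left out of the Tgfb1 order also carried the gene, some as high as the leading class. In each population 2 unnamed clusters had 105 and 196 CPM (SD rat), 51.2 and 137 CPM (chimera rat) and 129 and 175 CPM (mouse). Cycling chimera rat clusters ran from 9.02 to 108 CPM.

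Within the myeloid-like class Tgfb1 was not even. The SD rat cluster led by Cxcl2, Cd74 and the C1q genes, the complement genes of tissue macrophages, had 208 CPM and the Lyz2 and Il1b-led cluster 149 CPM. The S100a8 and S100a9-led cluster of 33 cells had 0 UMIs, and its chimera rat counterpart of 19 cells 20.1 CPM.

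Tgfb2 was highest in pericyte or mural-like cells, at 179 CPM (155 to 205) in the SD rat and 198 (178 to 221) in chimera rat cells. The 2 chimera rat clusters of that class differed, with 80.7 and 284 CPM. FAP-like cells followed in the SD rat at 138 CPM (134 to 142), beyond the counting error of the class above, then tenocyte or fibroblast-like cells at 92.6 and myogenic progenitor-like cells at 82.6 CPM. Lymphatic endothelial-like cells came second among chimera rat cells at 170.1 CPM (141 to 203), overlapping both the class above and FAP-like cells at 159 CPM (155 to 164), and myogenic progenitor-like cells had 87.5 CPM. Without the top cell of each class, lymphatic endothelial-like cells were at 130 CPM, below FAP-like cells at 158 CPM. Myocyte-like cells fell to 13.2 and 14.1 CPM, and myeloid-like cells to 10.7 and 9.69 CPM. Among mouse cells FAP-like and tenocyte or fibroblast-like cells held 136 and 132 CPM, next to Schwann or glial-like cells with 171 CPM on 25 cells and an interval of 97.8 to 278. Mouse B-like, T or NK-like and myeloid-like cells had 0 Tgfb2 UMIs, which allows up to 2.55, 3.39 and 3.999 CPM.

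Among SD rat FAP-like clusters Tgfb2 ranged 11.4-fold. The Smoc2 and Cxcl14-led cluster had 171 CPM, the Prg4 and Myoc-led cluster 158 CPM and the Pi16-led cluster 138 CPM, but the Apod and Myoc-led cluster of 112 cells had 14.9 CPM. The Apod, Gpc3 and Myoc-led cluster of the chimera rat cells, with 115 cells, was likewise the lowest of its class at 31.5 CPM, and the Smoc2-led cluster the highest at 208 CPM.

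Tgfb3 was highest in tenocyte or fibroblast-like cells, with 78.2 CPM (70.2 to 86.9) in the SD rat and 75.1 CPM (67.8 to 83.0) in chimera rat cells. Lymphatic endothelial-like (45.4), pericyte or mural-like (35.6) and myogenic progenitor-like cells (34.9 CPM) formed an overlapping group below it in the SD rat, followed by FAP-like cells at 30.5 CPM. Chimera rat pericyte or mural-like cells, at 68.7 CPM (56.7 to 82.5), overlapped the leading class, and lymphatic endothelial-like cells had 49.6 CPM. Within the tenocyte or fibroblast-like class the Kera and Fmod-led cluster carried more Tgfb3 (94.9 CPM in the SD rat and 88.1 CPM in chimera rat cells) than the Thbs4 and Chodl-led cluster (38.1 and 50.1 CPM). Tgfb1 went the other way in the same clusters, with 12.1 and 7.4 CPM in the first and 46.5 and 30.2 CPM in the second, and so did Tgfb2, with 70.5 and 59.2 CPM against 145 and 107 CPM. In mouse cells Tgfb3 stood at 39.3, 36.9 and 36.5 CPM in tenocyte or fibroblast-like, myogenic progenitor-like and FAP-like cells, with overlapping intervals.

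**Figure D2:**
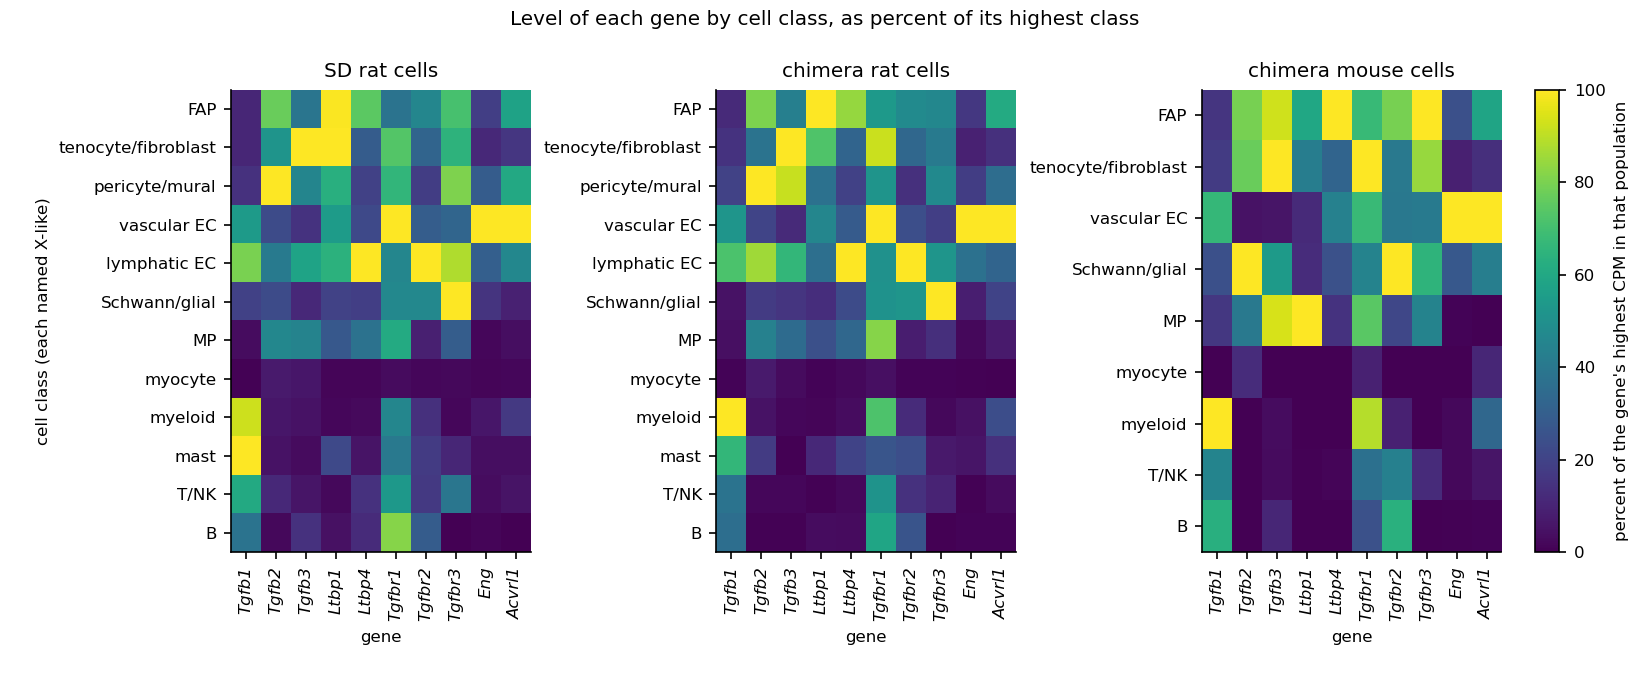
Level of each of the 10 genes (columns) in each class (rows) of SD rat, chimera rat and chimera mouse cells (3 panels), coloured by the percent of the gene's highest CPM in that population. Tgfb1 is brightest in the myeloid or mast row, Tgfb3 in the tenocyte or fibroblast row and Eng and Acvrl1 in the vascular endothelial (EC) row, and the myocyte row is dark throughout (MP, myogenic progenitor).

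The latency proteins followed the stromal ligands rather than Tgfb1. Ltbp1 was level in SD rat tenocyte or fibroblast-like cells (253 CPM, 238 to 268) and FAP-like cells (251 CPM, 246 to 256), whereas chimera rat FAP-like cells, at 298 CPM, were above tenocyte or fibroblast-like cells, at 216 CPM. Lymphatic endothelial-like (162), pericyte or mural-like (159) and vascular endothelial-like cells (139 CPM) came next in the SD rat, and myeloid-like, T or NK-like and myocyte-like cells lay below 6 CPM. The Pi16-led FAP-like cluster had 377 CPM of Ltbp1 in the SD rat and the Smoc2-led cluster 353 CPM, against 97.6 CPM in the Prg4 and Myoc-led cluster. Chimera rat FAP-like cells held 447 CPM in the Mfap5-led cluster and 384 CPM in the Smoc2-led cluster. Endothelial-like clusters led by Selp and Plvap, Selp being a venular adhesion gene, carried 298 CPM in the SD rat and 274 CPM in chimera rat cells, against 122 and 74.6 CPM in the largest endothelial-like cluster of each.

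Ltbp4, which is known for its part in elastic fibre assembly and in muscular dystrophy severity, was highest in lymphatic endothelial-like cells, with 723 CPM (664 to 785) in the SD rat and 479 CPM (429 to 533) in chimera rat cells. FAP-like cells followed with 539.8 and 404 CPM. The chimera rat lead rested on 1 cell with 56 of the 338 lymphatic UMIs, and without the top cell of each class the levels were 399.7 CPM in lymphatic endothelial-like and 403 CPM in FAP-like cells, against 695 and 537.7 CPM in the SD rat. Next came myogenic progenitor-like cells with 271 and 159 CPM, though in the chimera tenocyte or fibroblast-like cells had 155 CPM. In the SD rat the progenitor cluster led by Cpa1 and Tagln held 349 CPM and the Myog-led cluster, the differentiating one by that gene, 31.2 CPM. In chimera rat cells these were 206 and 66.8 CPM. Mature myocyte-like cells had 9.89 and 9.68 CPM. Mouse FAP-like cells had 433 CPM, mouse endothelial-like cells 190 CPM, and mouse B-like and myeloid-like cells 0 UMIs, which allows up to 2.55 and 3.999 CPM.

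Among the receptors Tgfbr1 was the most evenly spread over SD rat classes, its highest class at 2.00-fold the median class, and Eng the least, at 11.4-fold. Tgfbr1 was highest in vascular endothelial-like cells in both rat populations, at 90.5 CPM (82.0 to 99.7) and 64.7 CPM (56.8 to 73.3), but overlapped the next class in each, and 10 further SD rat classes lay between 34.6 and 73.9 CPM. Only myocyte-like cells were far below, at 2.74 CPM in both rat populations. Mouse tenocyte or fibroblast-like cells had 119.8 CPM, myeloid-like cells 107 CPM, myogenic progenitor-like cells 89.0 CPM and endothelial-like cells 81.0 CPM.

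Tgfbr2 was concentrated in lymphatic endothelial-like cells, with 509 CPM (459 to 561) in the SD rat and 524 CPM (472 to 581) in chimera rat cells, 2.14-fold and 1.92-fold above the next class. Schwann or glial-like cells (237 and 273 CPM) and FAP-like cells (234 and 252 CPM) followed with overlapping intervals. The myogenic classes were lowest, with 45.5 and 41.1 CPM in myogenic progenitor-like cells and 8.37 and 4.84 CPM in myocyte-like cells. In mouse cells Schwann or glial-like (246 CPM), FAP-like (195 CPM) and B-like cells (156 CPM) were highest, whereas B-like cells of both rat populations (148 and 137 CPM) lay below tenocyte or fibroblast-like cells (163 and 175 CPM). No lymphatic endothelial-like class was found among the mouse cells. Pi16 or Mfap5-led FAP-like clusters had the most Tgfbr2 of their class, 324 CPM in the SD rat and 364 CPM in chimera rat cells.

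Tgfbr3 was highest in Schwann or glial-like cells, with 100.1 CPM (79.1 to 125) in the SD rat and 146 CPM (118 to 180) in chimera rat cells. Lymphatic endothelial-like (88.2), pericyte or mural-like (80.9), FAP-like (71.0) and tenocyte or fibroblast-like cells (64.5 CPM) came next in the SD rat, each overlapping the class above it, Schwann or glial-like cells included. Averaged over cells instead of summed, lymphatic endothelial-like cells led in the SD rat. In chimera rat cells the lead over lymphatic endothelial-like cells (76.5 CPM, 57.5 to 99.9) was beyond counting error. Myeloid-like cells had 1.66 CPM and B-like cells 0 UMIs, which allows up to 11.1 CPM. Mouse FAP-like cells stood at 262 CPM (240 to 287). In value, mouse tenocyte or fibroblast-like (222), Schwann or glial-like (171), myogenic progenitor-like (117) and endothelial-like cells (107 CPM, 99.5 to 115) followed.

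Eng marked vascular endothelial-like cells in all populations, with 563 CPM (541 to 585) in the SD rat, 658 CPM (632 to 684) in chimera rat and 463 CPM (448 to 479) in chimera mouse cells. The next class was 3.29-fold, 2.68-fold and 3.61-fold lower, lymphatic endothelial-like in both rat populations and Schwann or glial-like in mouse cells. Pericyte or mural-like (163 CPM) and FAP-like cells (105 CPM) also carried it in the SD rat, and myogenic progenitor-like cells had 10.2 and myocyte-like cells 7.31 CPM. Acvrl1 had the same leading class, at 55.9 CPM (49.3 to 63.3) in the SD rat, 48.6 CPM in chimera rat and 100.4 CPM (93.2 to 108) in mouse cells. Pericyte or mural-like (33.8), FAP-like (32.3) and lymphatic endothelial-like cells (25.9 CPM) followed in the SD rat with overlapping intervals, and B-like cells had 0 UMIs.

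Endothelial clusters differed in the receptors. Mouse cells led by Mgp, Rbp7 and Stmn2 had the most Acvrl1 (206 CPM) and Ltbp4 (358 CPM) of the 7 mouse endothelial-like clusters. The Selp and Sele-led cluster had the most Eng (657 CPM) and Ltbp1 (97.5 CPM), and the Dach1-led cluster the most Tgfbr3 (241 CPM) and Tgfbr1 (147 CPM). In chimera rat cells the Dach1 and Mecom-led cluster held 94.4 CPM of Acvrl1, 178 CPM of Tgfbr1 and 139 CPM of Tgfb2, against 47.1, 60.3 and 29.4 CPM in the Fabp4-led cluster. Unnamed mouse clusters led by H2-Ab1 or Cd74 carried Acvrl1 at 81.6 and 82.0 CPM in 67 and 30 cells, with Eng at 6.1 and 20.5 CPM.

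**Figure D3:**
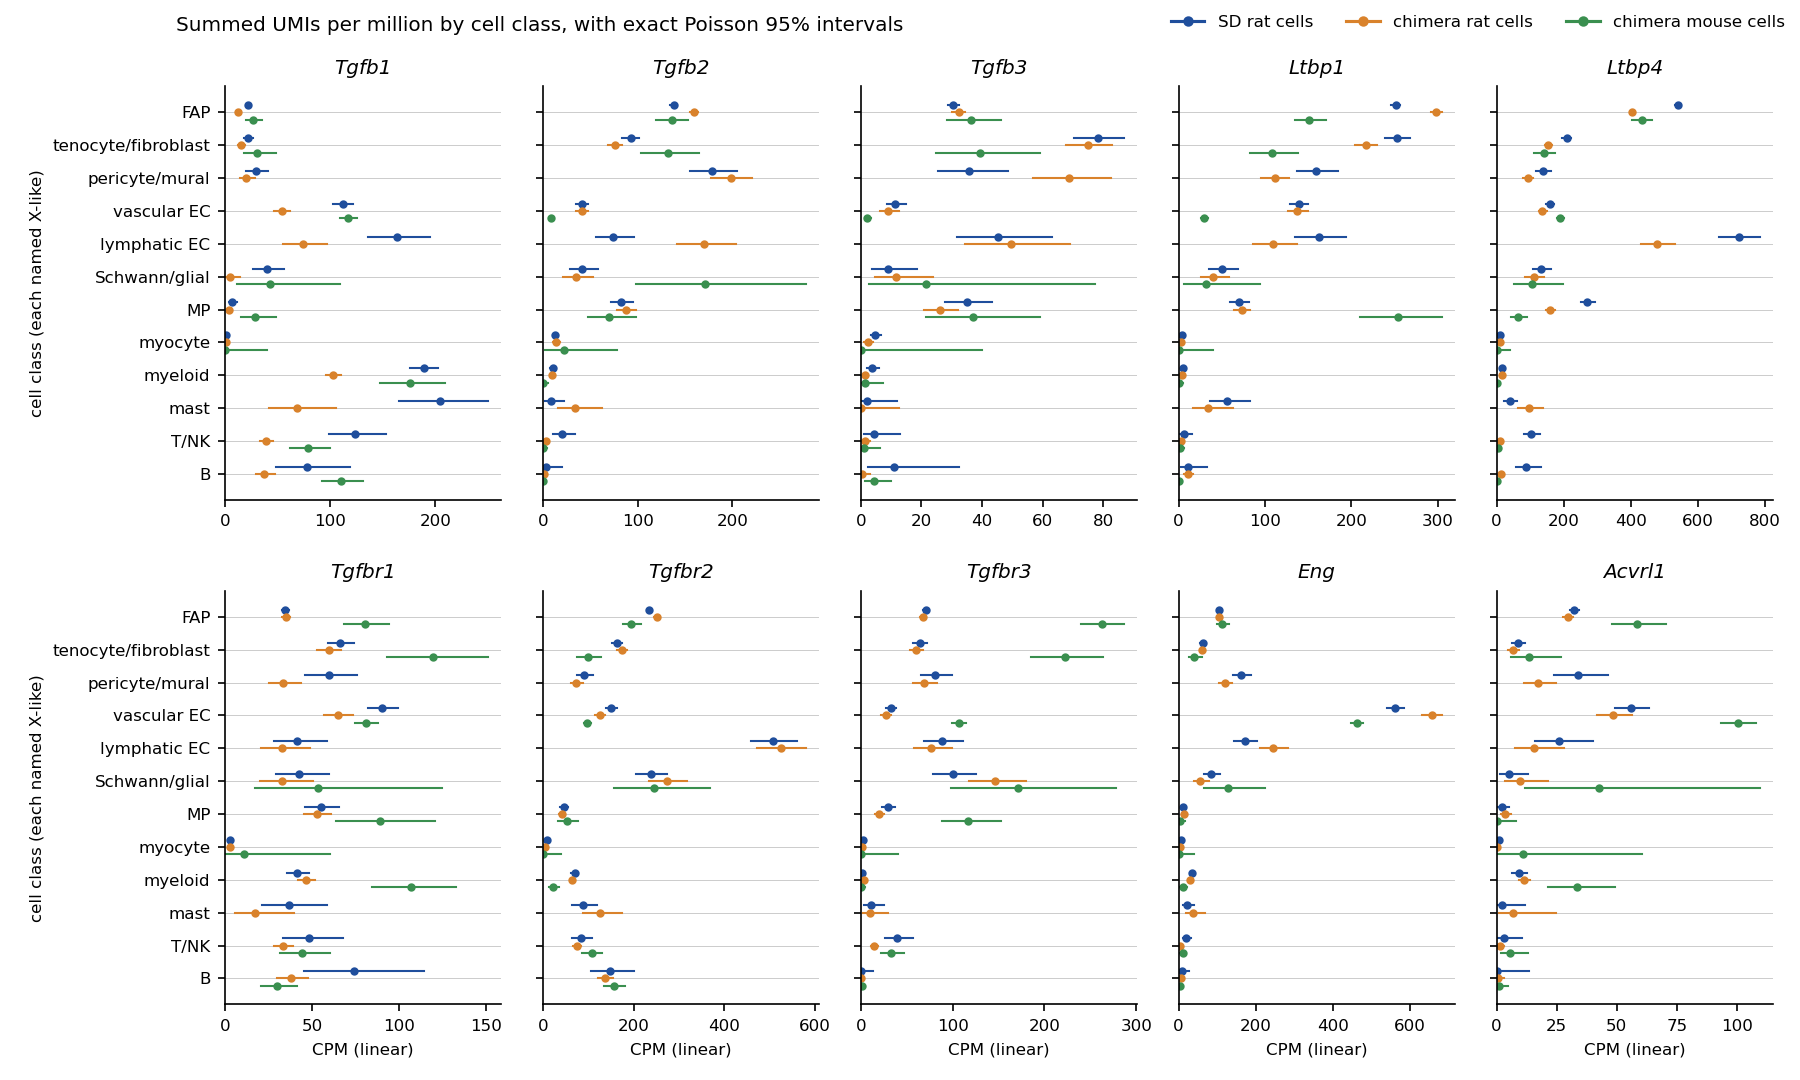
CPM on a linear axis (horizontal, scaled per gene) of the 10 genes in each class (vertical axis, EC endothelial, MP myogenic progenitor), with 1 panel per gene and 1 colour per population; points are summed levels and bars exact 95% Poisson intervals. The leading rat class stands clear of the next for Tgfbr2 and Eng, while the Tgfbr1 points of most classes lie close together.

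Because class sizes differed, the class with the highest level was often not the one that gave most UMIs. In the SD rat 36.4% of cells were FAP-like, but as deep cells they held 54.8% of all UMIs, which is the share to read the genes against. They gave 76.7% of Tgfb2, 62.1% of Tgfb3, 77.7% of Ltbp1, 82.7% of Ltbp4, 73.6% of Tgfbr2, 74.6% of Tgfbr3 and 71.4% of Acvrl1 UMIs, and, below that share, 48.9% of Eng. Their part of the Tgfbr1 UMIs was also below 54.8%. Tgfb1 was lowest, with 26.9% from FAP-like cells, 26.7% from myeloid-like cells, which held 6.35% of all UMIs, and 17.0% from vascular endothelial-like cells, which held 6.85%. In the chimera, mouse cells were 18.3% of the cells of known species, held 18.7% of the own-species UMIs and gave 44.5% of Acvrl1, 40.2% of Tgfb1, 35.8% of both Eng and Tgfbr3 and 29.7% of Tgfbr1 UMIs, but 6.47% of Tgfb2 and 5.85% of Ltbp1 UMIs. They formed 60.1% of the vascular endothelial-like cells with 65.9% of their UMIs, and within that class gave 88.3% (86.0 to 90.4) of Tgfbr3, 80.8% of Tgfb1 and 79.96% of Acvrl1 UMIs, but 29.5% of Ltbp1 and 27.8% of Tgfb2 UMIs. These shares count the gene of each cell's own species only. Rat cells had a further 1181 Tgfb1 and 399 Tgfbr3 UMIs on the mouse gene, and mouse cells 19 and 16 on the rat gene. With both genes of a pair counted, the mouse shares of Tgfb1 and Tgfbr3 would be lower.

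Shares of cells with a UMI gave a similar picture, within the limits of depth. In the SD rat Ltbp4 was found in 94.5% of lymphatic endothelial-like and 89.8% of FAP-like cells, Eng in 57.6% of vascular endothelial-like cells (median 1915 UMIs) and Tgfb1 in 63.5% of myeloid-like cells (median 7743 UMIs). The class taken to lack each gene was B-like (median 3580 UMIs) or, for Tgfb1, Tgfbr1 and Tgfbr2, erythroid-like (median 1740 UMIs). There the share was 9.46% for Ltbp4, 2.70% for Eng and 3.12% for Tgfb1. The highest share lay above it for 10 of 10 genes, and for 6 of 10 after each cell was thinned to 1000 UMIs. The exceptions, Tgfb1, Tgfb3, Tgfbr1 and Acvrl1, were not distinguishable from background at that depth, and only 21 erythroid-like cells reached it. The count without thinning says little by itself. The background class was picked for each gene as one taken to lack it, and the leading class was always deeper.

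The patterns of the genes over the 12 SD rat classes are described by Pearson correlations of log2(CPM + 10), with no test, since the classes share 1 library. Eng and Acvrl1 were most alike (r = 0.94), Tgfb2 went with Tgfbr3 and Ltbp1 (both r = 0.83), and Tgfb1 ran against Tgfb2 (r = -0.40). Of all genes reaching 100 CPM in a class, those closest to Eng were Tmem140, Thbd, which binds thrombin on endothelium, and Tspan9 (r = 0.96, 0.96 and 0.93), and those closest to Acvrl1 were Thbd, Tmem140 and Eng. The closest to Tgfb1 were Fxyd5, Vamp8 and Ostf1 (r = 0.94, 0.92 and 0.91), to Tgfb2 Cald1, Igf2r and Lamb2, to Tgfb3 Pkd2, Id3 and Plod2, to Ltbp1 Parva, Bicc1 and Klhl29, and to Ltbp4 Tspan5, Clstn1 and Dpysl3. Tgfbr1 was most like Tra2b, Clk1 and Tet2, Tgfbr2 like Add3, Glud1 and Nfatc1, and Tgfbr3 like Farp1, Nfia and Ptms.

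The promoter of Eng is shown because this gene had the most class-restricted pattern of the 10. The 250 bases before the RefSeq start on the plus strand of the rat assembly GRCr8 (chr3:36332029-36332278) read as follows, with GGAA and its reverse complement TTCC, the core letters bound by ETS factors, in capitals.
Eng: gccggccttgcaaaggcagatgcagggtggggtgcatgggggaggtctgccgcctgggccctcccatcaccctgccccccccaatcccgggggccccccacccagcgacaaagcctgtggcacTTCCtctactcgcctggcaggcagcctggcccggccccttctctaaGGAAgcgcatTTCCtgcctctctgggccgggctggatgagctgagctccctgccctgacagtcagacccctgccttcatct
GGAA was searched on both strands and matched 3 times. Of 33469 rat promoters of the same length 55.5% held at least as many matches and 93.2% at least 1. Tgfb2 and Tgfb3 also had 3 matches, Tgfbr2 had 4 and Tgfbr1 had 0, so the count did not separate Eng from genes of other patterns.

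The second question was whether the rat cells of the chimera differed from those of the SD rat. The class with the highest level was the same in both for 8 of 10 genes, the exceptions being Tgfb1 (mast-like, then myeloid-like) and Ltbp1 (tenocyte or fibroblast-like, then FAP-like), where the leading intervals overlapped in at least 1 population. Ratios are log2 of (CPM + 1) in chimera rat over SD rat cells, for pairs with at least 50 UMIs over both populations, and intervals are exact binomial ones of the ratio without a pseudocount. Of 87 gene and class ratios 9 were at least 2-fold, 1 higher and 8 lower in the chimera, and the median was -0.21. With both genes of a pair summed it was 7 of 88.

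None of the genes measured was 2-fold apart in 7 of the 12 classes, where 2.53% to 8.11% of all genes were, so that counts of 0 there say little about the 10. In FAP-like cells 0 of 10 genes were 2-fold apart, against 2.53% of 12340 genes in that class, and the ratios ran from -0.81 for Tgfb1 (-0.38 with the pair summed) to 0.25 for Ltbp1. Tenocyte or fibroblast-like cells also had 0 of 10 (3.36% of all genes), pericyte or mural-like cells 0 of 10 (8.11%), myogenic progenitor-like cells 0 of 8 (3.6%), myocyte-like cells 0 of 4 (6.47%), Schwann or glial-like cells 0 of 7 (6.03%) and myeloid-like cells 0 of 8 (3.52%). The median over the 10 genes was -0.47 in pericyte or mural-like cells, against -0.08 for all genes, and 0.01 in FAP-like cells, against 0.07. Ltbp4 was lower in the chimera in each of the FAP-like (-0.42), tenocyte or fibroblast-like (-0.43), pericyte or mural-like (-0.59), myogenic progenitor-like (-0.76), vascular (-0.21) and lymphatic endothelial-like classes (-0.59), all with intervals below 0 and none 2-fold. In pericyte or mural-like cells Acvrl1 stood at 17.3 against 33.8 CPM (-0.93, or -1.02 with the pair summed, where 13.02% of the class's UMIs joined the total and 6.45% of the pair lay on the mouse gene) and Tgfbr1 at 33.5 against 59.6 CPM (-0.81, or -0.91 summed). The 2 chimera clusters of the class had Acvrl1 at 9.91 and 22.7 CPM and Tgfbr1 at 32.0 and 35.4 CPM. The part of class makeup in the ratios and median of this class was not tested. Tgfb3 in the same class was close to the threshold, at 68.7 against 35.6 CPM (0.93, interval 0.42 to 1.51). The chimera class held a Tagln, Acta2 and Myh11-led cluster of 103 cells with 117 CPM, while its Rgs5-led cluster had 33.1 CPM and the Rgs5-led cluster that made up the whole SD rat class 35.6 CPM.

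Tgfb1 accounted for 5 of the 9 ratios past 2-fold, and all lay on the low side. In vascular endothelial-like cells it stood at 53.9 CPM in the chimera and 112 CPM in the SD rat (-1.04, interval -1.29 to -0.82), the 1 gene of 10 called there against 6.14% of all genes. With the mouse gene's UMIs added the ratio was -0.72, and the class medians were 3446 and 1915 UMIs per cell. Mast-like cells (1 of 2 genes called, 8.53% of all genes) had 68.3 against 205 CPM (-1.57, or -0.91 with the pair summed). In lymphatic endothelial-like cells, where 2 of 9 genes were called (5.85% of all genes), Tgfb1 was at 73.7 against 163 CPM (-1.14, or -0.79 summed). In B-like cells it was at 37.4 against 77.6 CPM (-1.03, or -0.69 summed) and in T or NK-like cells at 39.2 against 124 CPM (-1.64, or -1.27 summed). T or NK-like cells alone stayed past 2-fold after the sum. Myeloid-like cells, the main immune source, were at 103 against 189 CPM (-0.87), and at -0.44 (-0.57 to -0.31) with the pair summed.

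The other gene called in lymphatic endothelial-like cells was Tgfb2, the 1 ratio on the high side, at 170.1 CPM (141 to 203) in 82 chimera cells and 73.9 CPM (56.0 to 95.8) in 110 SD rat cells. The log2 ratio was 1.19 (0.74 to 1.68), and 1.08 with the pair summed. It was found in 27 cells of each population, 32.9% and 24.5% of the class. The summed level of the 15 FAP markers in the class was 8.94% of the FAP-like level in chimera cells (14 of 15 with UMIs) and 6.14% in SD rat cells (12 of 15), and its part in the ratio was not tested. In the chimera 1 cell held 28 of the 120 Tgfb2 UMIs, and without the top cell of each population the levels were 130 and 59.7 CPM. Lymphatic levels of Eng were 245 against 171 CPM (0.52) and of Ltbp1 109 against 162 CPM (-0.57). For Eng 1 chimera cell held 41 of 173 UMIs, and without the top cells the levels were 187 and 162 CPM.

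T or NK-like and B-like cells held the rest, in classes where 15.6% and 14.1% of all genes were 2-fold apart. T or NK-like cells had 3 of 5 genes called, Ltbp4 at 10.4 against 104 CPM (-3.20, or -3.11 summed), Tgfb1 as given and Tgfbr3 at 14.5 against 39.4 CPM (-1.38, or -1.41 summed). B-like cells had 2 of 4, Tgfb1 and Ltbp4 at 14.5 against 88.7 CPM (-2.53, or -2.45 summed). In the SD rat 1 cell held 16 of the 24 B-like Ltbp4 UMIs, and without it the level was 29.6 CPM. Likewise 1 T or NK-like cell held 31 of 71, and without it the level was 58.3 CPM. FAP markers moved with Ltbp4. Their summed level in T or NK-like cells was 8.15% of the FAP-like level in the SD rat, with UMIs of 13 of 15, and 1.19% in the chimera, also with 13 of 15. In B-like cells it was 9.28% with 9 of 15 and 0.504% with 11 of 15. The part of FAP RNA in these Ltbp4 ratios was not tested. The classes also differed in makeup. The SD rat T or NK-like class was 1 Ccl5-led cluster of 93 cells, and the chimera class held 4 clusters. The Ccl5, Gzma and Nkg7-led one of 47 cells had 80.8 CPM of both Ltbp4 and Tgfb1, and 8.66 CPM of Tgfbr3. Tgfbr3 stood at 6.79 CPM in the Plac8, Cd3d and Cd3g-led cluster of 448 cells, but at 42.0 CPM (26.0 to 64.2) in the Icos and Ikzf2-led cluster of 71 cells and at 68.5 CPM (39.9 to 109.6) in the Il1rl1 and Gata3-led cluster of 41 cells, both above the SD rat level in value, with overlapping intervals.

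**Figure D4:**
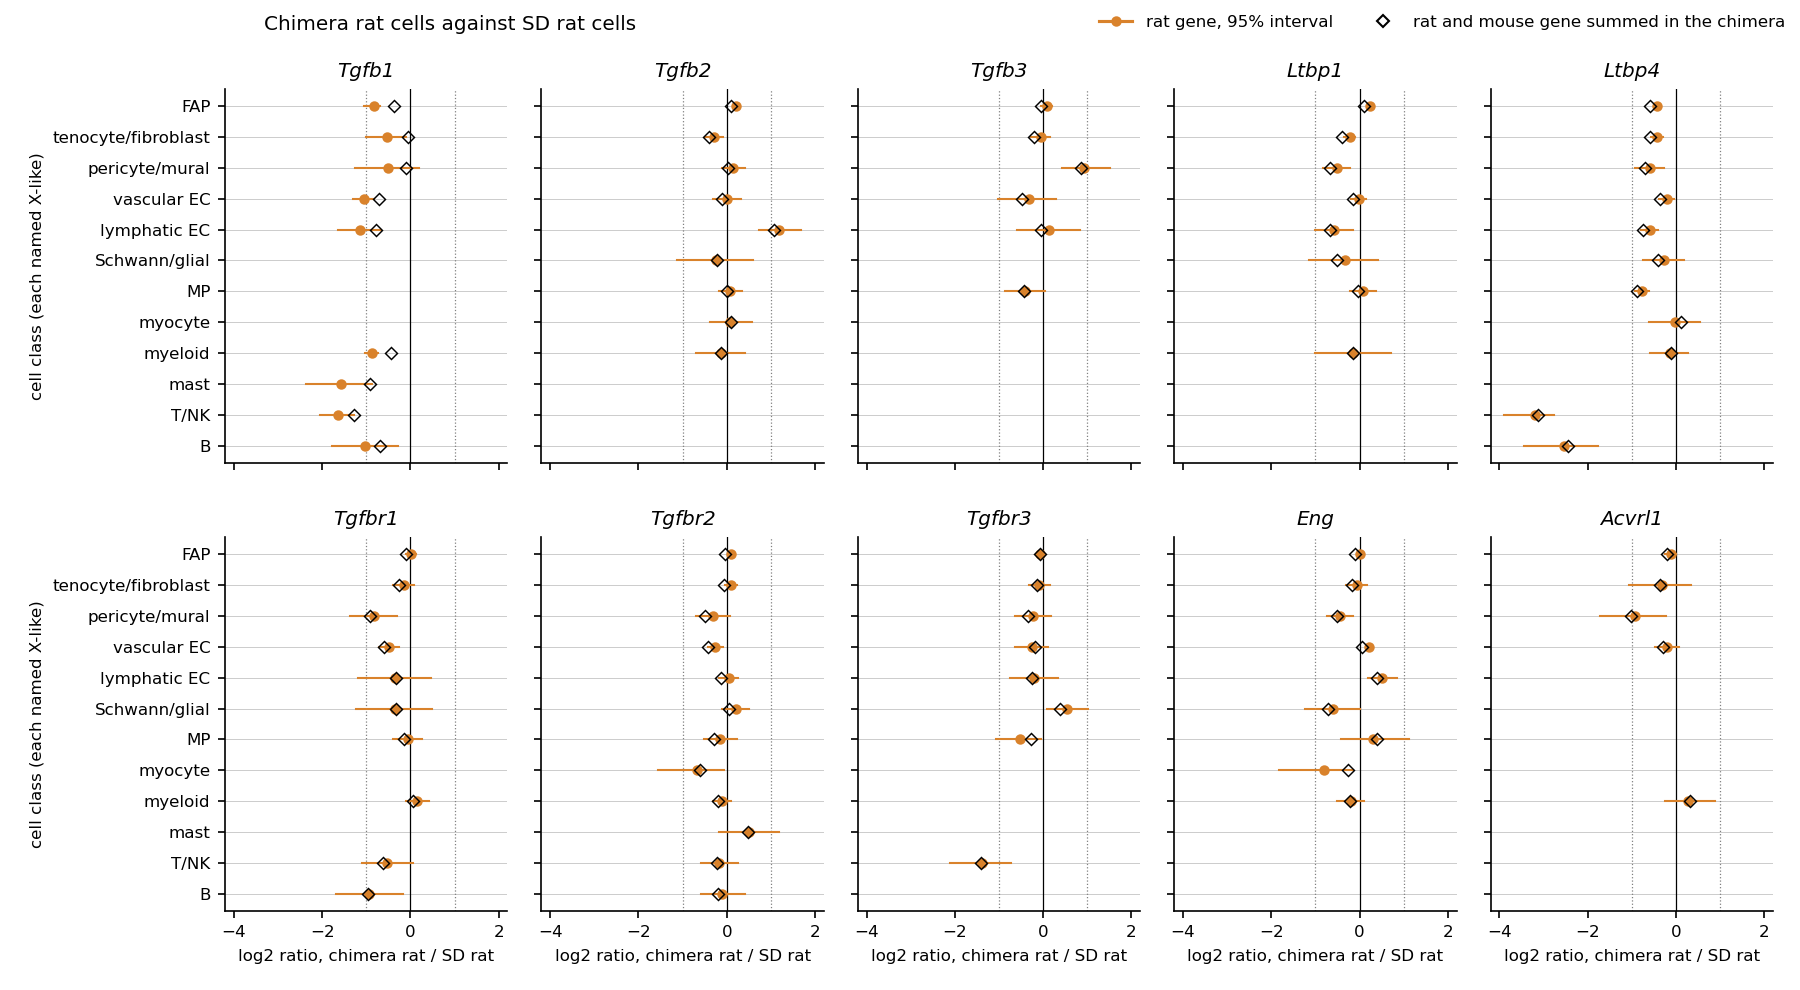
Log2 ratio of chimera rat over SD rat cells (horizontal axis) for the 10 genes in each class (vertical axis, EC endothelial, MP myogenic progenitor); filled points are the rat gene with its exact 95% binomial interval, open diamonds the rat and mouse gene summed, and dotted lines mark 2-fold. Most points lie between the lines, Tgfb1 moves towards 0 when the pair is summed, and Tgfb2 in lymphatic endothelial-like cells lies past the line on the right.

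Other genes of the pathway were read the same way, but for the rat gene alone unless a summed ratio is given. Chimera UMIs on the mouse gene are then not counted. Of all genes, 2.53% were 2-fold apart in FAP-like, 6.14% in vascular endothelial-like and 5.85% in lymphatic endothelial-like cells. The share was 8.11% in pericyte or mural-like, 3.52% in myeloid-like, 3.6% in myogenic progenitor-like and 6.47% in myocyte-like cells. It was 15.6% in T or NK-like and 14.1% in B-like cells. Counts of 1 gene near these shares say little about a list. None of the 19 latency and activation genes, 19 signalling genes, 21 response genes and 9 genes of the BMP9 and BMP10 branch measured in FAP-like cells was 2-fold apart. In vascular endothelial-like cells 1 of 16 latency and activation genes was lower (Ltbp3, -1.24), 0 of 19 signalling genes passed, and of 19 response genes Ccn2, a matricellular gene, was higher (1.24) and Col1a1 lower (-1.01). Acvr1, a type I BMP receptor, was lower (-1.02), the 1 called of 7 in the BMP branch. Lymphatic endothelial-like cells had Dcn (1.82), a matrix proteoglycan that binds TGF-beta, and Ccn2 (1.60) higher. These were 1 of 10 latency and 1 of 15 response genes. Among SD rat classes Dcn was highest in FAP-like cells. The lymphatic FAP marker sum was 8.94% of the FAP-like level for chimera rat cells, against 6.14% for SD rat cells. The part of FAP RNA in the Dcn and Ccn2 ratios was not tested, nor was that of single cells. Pericyte or mural-like cells had 2 of 19 response genes higher, Tagln (1.53) and Acta2 (1.47), and 5 lower, led by Col1a1 (-2.14) and Col1a2 (-1.56). Tagln and Acta2 also led 1 of the 2 clusters of the chimera class, while the SD rat class was 1 Rgs5-led cluster. The part of this makeup in the ratios was not tested. Lrrc32 (GARP), which displays latent TGF-beta on the cell surface, was 148 against 71.2 CPM there (1.04). In myeloid-like cells Thbs1, an activator of latent TGF-beta, was higher (292 against 115 CPM, 1.33), and Mmp9 (-1.36) and Ltbp3 (-1.09) were lower, among 16 genes. Myogenic progenitor-like cells had 3 of 19 response genes lower, led by Col1a1 (-1.97) and Col1a2 (-1.40). Myocyte-like cells had 5 of 15 response genes lower and 0 higher, with a median of -0.84 against -0.19 for all genes, led by Col1a1 (-1.64) and Col1a2 (-1.41), and 2 of 3 genes of the BMP branch lower, Bmpr2 (-1.35, or -0.43 with the pair summed) and Id3 (-1.31, or -0.86 summed). In T or NK-like and B-like cells 11 of 17 and 7 of 13 response genes were lower and 0 higher, beside the lower FAP marker sums given above.

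Latency, activation and response genes were often highest in stromal classes, though about as many lay elsewhere, and signalling and BMP branch genes less often so. Of 9632 genes that reached 20 CPM in the SD rat 9.04% were highest in tenocyte or fibroblast-like or FAP-like cells, given as a description with no test. Of 20 latency and activation genes that reached 20 CPM in the SD rat, 6 were highest in tenocyte or fibroblast-like cells (Bgn, Fbn2, Ltbp2, Ltbp3, Thbs1 and Thbs2) and 4 in FAP-like cells (Dcn, Fbn1, Mmp14 and Mmp2), and the other 10 were spread over 8 classes. Nrros, which holds latent TGF-beta1 on macrophages, was highest in myeloid-like cells at 230.1 CPM in the SD rat, 202 CPM in chimera rat and 172 CPM in mouse cells. Of 20 response genes 8 were highest in tenocyte or fibroblast-like cells, Ccn2, Postn and Tgfbi among them, 3 in FAP-like cells, and 9 in 6 other classes. Of 17 signalling genes 3 were highest in tenocyte or fibroblast-like cells and 4 in B-like cells, where 18.3% of the 9632 genes were. Of 8 BMP branch genes 1 was highest in tenocyte or fibroblast-like cells and 1 in FAP-like cells. Bmpr2, the type II receptor that pairs with ACVRL1, was highest in vascular endothelial-like cells at 434, 356 and 314 CPM in the SD rat, chimera rat and mouse cells. Id1, a SMAD1 and SMAD5 target, stood at 136, 176 and 460.1 CPM in the same class. Gdf2, the gene of BMP9, had 0 UMIs in every class listed.

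Mouse cells beside rat cells of the same animal compare a mouse gene with a rat gene, so species, origin from the injected cells and mapping cannot be told apart. In vascular endothelial-like cells 6 of 10 genes were at least 2-fold apart, against 31.9% of 8982 gene pairs in that class. Higher in mouse cells were Tgfbr3 (107 against 27.3 CPM, 1.93, or 1.80 with the pair summed), Tgfb1 (117 against 53.9 CPM, 1.10, or 0.72 summed) and Acvrl1 (100.4 against 48.6 CPM, 1.03, or 1.04 summed). Lower were Tgfb2 (8.16 against 41.0 CPM, -2.20, or -1.55 summed), Ltbp1 (29.8 against 138 CPM, -2.17, or -1.96 summed) and Tgfb3 (2.18 against 8.94 CPM, -1.65, or -1.10 summed). The sums for Tgfb2 and Tgfb3 add the rat UMIs of mouse endothelial-like cells given above. Both core receptors lay within 2-fold, at 0.32 for Tgfbr1 and -0.36 for Tgfbr2, as did Eng (-0.50) and Ltbp4 (0.47). FAP markers summed to 3.09% of the FAP-like level in these rat cells and 0.116% in the mouse cells, and their part in the Tgfb2, Tgfb3 and Ltbp1 ratios was not tested.

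**Figure D5:**
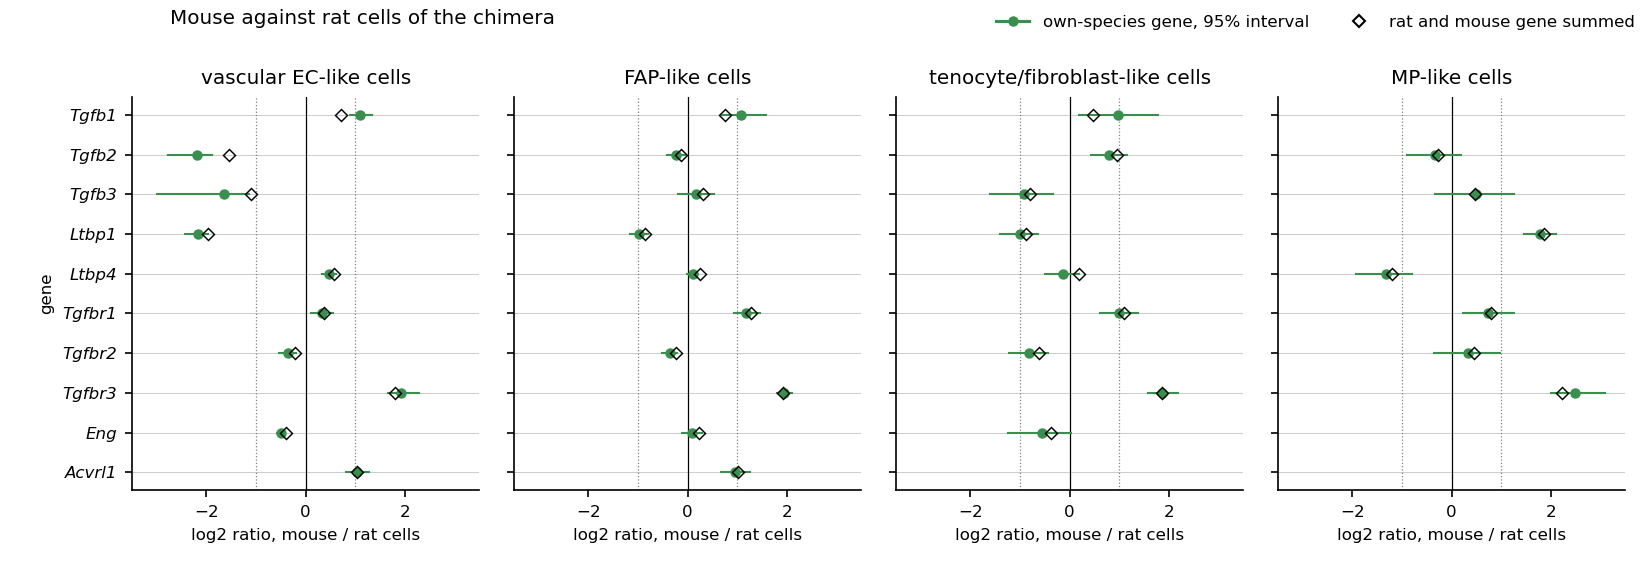
Log2 ratio of the mouse gene in chimera mouse cells over the rat gene in chimera rat cells (horizontal axis) for the 10 genes (vertical axis) in 4 classes (panels); filled points carry exact 95% binomial intervals, open diamonds are both genes summed, and dotted lines mark 2-fold. Tgfbr3 lies past the right line in all 4 classes, and Tgfb2, Tgfb3 and Ltbp1 lie past the left line in endothelial-like cells.

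Tgfbr3 was also higher in mouse cells in FAP-like, tenocyte or fibroblast-like and myogenic progenitor-like cells. In Schwann or glial-like cells, with 25 mouse cells, it was at 171 against 146 CPM (0.22, interval -0.64 to 1.00, or 0.38 summed). There 0 of 3 genes were past 2-fold, against 34.45% of all pairs. Myocyte-like cells had 0 mouse and 6 rat UMIs of Tgfbr3 and were not compared. In FAP-like cells it was at 262 against 67.6 CPM (1.94, interval 1.81 to 2.10, or 1.92 summed), with Tgfbr1 (1.18, or 1.28 summed) and Tgfb1 (1.09, or 0.75 summed) the other 2 of 10 genes past 2-fold, against 32.6% of all pairs. In tenocyte or fibroblast-like cells it was the 1 of 9 (222 against 60.6 CPM, 1.86, or 1.87 summed), against 30.6% of all pairs. Myogenic progenitor-like cells had 3 of 7 past 2-fold (33.2% of all pairs). Tgfbr3 was at 117 against 20.0 CPM (2.50, or 2.23 summed), Ltbp1 at 254 against 73.4 CPM (1.78, or 1.87 summed) and Ltbp4 at 63.0 against 159 CPM (-1.33, or -1.19 summed). This mouse class was 1 cluster of 47 cells led by Acta2, Gal, Cryab and Tagln, and its FAP marker sum was 0.727% of the FAP-like level against 6.61% in the rat class. Mouse myeloid-like cells, 67 cells of a Lyz2 and Il1b-led cluster, had 6 of 7 genes past 2-fold, against 39% of all pairs. Higher were Tgfbr1 at 107 against 46.5 CPM (1.18, or 1.28 summed) and Acvrl1 at 33.3 against 11.5 CPM (1.46, or 1.40 summed). Lower were Tgfbr2 at 22.7 against 64.8 CPM (-1.48, or -1.33 summed) and Eng at 10.7 against 30.2 CPM (-1.42, or -1.13 summed). Ltbp4 and Tgfb2 had 0 mouse UMIs against 15.8 and 9.69 CPM in rat cells, at least 3.95-fold and 2.42-fold lower when 0 is read as 3 counts. FAP markers summed to 0.186% of the FAP-like level in these mouse cells and 2.49% in the rat class, and their part in the Ltbp4 and Tgfb2 ratios was not tested. Mouse T or NK-like cells had 1 of 5 genes past 2-fold, Tgfbr3 (1.12, or 1.16 summed), against 33.7% of all pairs, and B-like cells 1 of 3, Tgfb1 (1.54, or 1.16 summed), against 29%.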

How the data were processed

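Libraries were made with the 10x Chromium 3' v3.1 kit from skeletal muscle cells sorted for viability. Per the labels, reads were processed with Cell Ranger 7.1.0 against the builds mRatBN7.2 and GRCm39, and the authors deposited filtered matrices of raw UMI counts per gene and barcode, on a joined rat and mouse reference for the chimera and on rat genes for the SD rat. Barcodes with at least 500 UMIs, 200 genes and at most 20% mitochondrial UMIs were kept, and barcodes called as doublets by Scrublet (444 or 3.65% in the chimera, 164 or 1.83% in the SD rat) were removed. Within each population counts were scaled to 10000 per cell, and 2000 variable genes without the 10 genes gave 30 components and Leiden clusters (resolution 1; scanpy 1.11.5). A cluster was named from at least 3 raised markers. The rules that left clusters unnamed were set after the clusters were seen, so classes may differ from the study's. The genes, lists and markers were chosen with earlier results of these data known. Named genes were the 10 genes in every class, the 2 pathway genes furthest past 2-fold each way, and the 3 genes most correlated with each of the 10. Cells are not replicates, so no p-values were computed. Intervals cover counting error only, and a count of 0 was read as up to 3 counts. The ratio step was tested on simulated data. Alternatives changed the species threshold, doublets, depth, clustering, scale, pseudocount, minimum and fold, or summed each gene pair. RefSeq promoters matched 9 of the 10 genes by symbol.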

Additional observations from a re-analysis of the deposited data

How the results depend on the processing

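The number of genes with the same leading class in both rat populations ran from 6 to 9 over the settings tried, against 8 of 10. With predicted doublets kept, a species threshold of 90% or a minimum of 1000 UMIs no lymphatic endothelial-like class was compared, and Ltbp4 was then highest in FAP-like cells in both rat populations. Tgfbr2 was then highest in Schwann or glial-like cells of both rat populations, or in FAP-like cells at the 90% threshold. At 90% Tgfbr3 was highest in pericyte or mural-like cells in the SD rat and in FAP-like cells in chimera rat cells. Tgfbr1 at 90% was highest in tenocyte or fibroblast-like cells in chimera rat cells. At the minimum of 1000 UMIs Tgfb2 was also highest in FAP-like cells, not pericyte or mural-like ones, in both rat populations. Leaving out the cell with the most UMIs of each gene also moved the leading class of Ltbp4 to FAP-like in chimera rat cells. The count of chimera rat to SD rat ratios past 2-fold (9 of 87) rose to 16 of 89 with doublets kept, to 18 of 115 with a minimum of 4 UMIs and to 21 at a fold of 1.5. It ran from 7 to 12 under the other settings. For mouse against rat endothelial-like cells the count (6 of 10) fell to 3 with a pseudocount of 10 CPM. Shares above background fell from 10 to 6 genes after thinning to 1000 UMIs. Over the settings the Tgfb1 ratio ranged from -1.10 to -0.72 in vascular endothelial-like cells and was past 2-fold in 10 of 13, and in T or NK-like cells from -1.69 to -1.12, past 2-fold in 13 of 13. Tgfb2 in lymphatic endothelial-like cells ranged from 0.81 to 1.26 and was past 2-fold in 9 of 10. No direction of a called ratio turned. Leaving out the barcodes of both libraries, and counting clusters of 2 types with their best class, were alternatives chosen after seeing the data and left the first count at 9. Causes of these shifts were not tested. No paired analysis was possible because each group is 1 library. Differences in classes under about 100 cells rest on few UMIs, and 1 animal per group leaves the spread between animals unknown.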
